A study of Mus musculus with 4 samples.

Results

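The data described here are the listed peaks at 6 noncoding genes of the mouse, Gas5, Snhg1, Snhg3, Snhg12, Malat1 and Neat1. The genes were chosen by symbol, with earlier results of these data known. They were found in the GENCODE M21 annotation of GRCm38, the assembly that mm10 names, where each symbol matched 1 gene. They are 6 of 13374 long noncoding RNA (lncRNA) genes of that annotation, which also holds 21938 protein-coding genes. The question was where these genes lie in a deposited list of peaks from ALaP-seq, a method for labelling chromatin near PML bodies. ALaP-seq labels chromatin with biotin through the peroxidase APEX, which acts once hydrogen peroxide is supplied. All 4 samples of the series were E14 mouse embryonic stem cells, an established line, with a knock-in that joins APEX to PML. They were cultured with serum, leukemia inhibitory factor, CHIR99021 (a GSK3 inhibitor) and PD0325901 (a MEK inhibitor). In 2 samples hydrogen peroxide was given (H2O2+), and in 2 it was left out as the negative control (H2O2-). Whether the knock-in line was 1 clone is not given in the sources used here.

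Small nucleolar RNAs (snoRNAs) guide the chemical modification and processing of ribosomal and small nuclear RNAs. Most vertebrate snoRNAs are cut out of the introns of a host gene after splicing. Gas5, Snhg1, Snhg3 and Snhg12 are hosts whose spliced RNA codes for no protein and is typically short-lived in the cytoplasm, so the intron products are their best understood output. Box C/D snoRNAs guide ribose methylation and box H/ACA snoRNAs guide pseudouridylation. Malat1 and Neat1 are abundant lncRNAs that stay in the nucleus: Malat1 gathers in nuclear speckles, which store splicing factors, and the long form of Neat1 is the scaffold of paraspeckles. PML bodies are a different nuclear compartment, built on the PML protein.

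The list holds 26496 peaks with a median width of 223 bp (quartiles 151 and 354 bp), covers 0.284% of the ungapped genome and gives a position and no height for each. It names no sample. Signal tracks of the single samples were not analysed here, so the H2O2+ samples were not set against the H2O2- samples. Depth per sample is unknown here, no value carries a replicate error, and no test was made. What follows is a description of 1 list, with the share of all genes beside counts of genes unless stated otherwise. As a check of the labelled cell type, all 8 embryonic stem cell markers examined, with the widest at Tdgf1 (1328 bp), Sox2 (888 bp), Esrrb (873 bp) and Nanog (737 bp), had a peak within 1 kb of a transcript start, as did 2 of 6 fibroblast markers (Vim and Fn1), 1 of 6 endoderm and mesoderm markers (Sox17) and 3 of 4 neural markers (Tubb3, Neurod1 and Pax6). Among all protein-coding genes the share was 42.4%.

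The sequences around the gene starts show how each start lay against its peak. The first 5 are RefSeq promoters of GRCm38.p6, each with 250 bases before the start and 50 from it onward, written 5′ to 3′ on the gene's own strand, with the bases inside a listed peak in capitals. RefSeq gives Gas5 a further start upstream, which is not printed; the table of promoters used here has no entry for Neat1. For Neat1 the central 300 bases of the peak over its start are shown instead, all of them inside the peak, from the same assembly and on the gene's strand.
Gas5, chr1:161034916-161035215, plus strand: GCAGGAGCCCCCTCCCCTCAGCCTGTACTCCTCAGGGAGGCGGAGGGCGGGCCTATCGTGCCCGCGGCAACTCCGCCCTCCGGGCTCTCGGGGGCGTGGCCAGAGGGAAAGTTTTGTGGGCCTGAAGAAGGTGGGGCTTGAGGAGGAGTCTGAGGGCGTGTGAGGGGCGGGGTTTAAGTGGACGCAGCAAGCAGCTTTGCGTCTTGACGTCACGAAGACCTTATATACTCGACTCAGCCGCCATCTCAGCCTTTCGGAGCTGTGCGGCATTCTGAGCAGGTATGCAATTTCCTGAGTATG
Snhg1, chr19:8723237-8723536, plus strand: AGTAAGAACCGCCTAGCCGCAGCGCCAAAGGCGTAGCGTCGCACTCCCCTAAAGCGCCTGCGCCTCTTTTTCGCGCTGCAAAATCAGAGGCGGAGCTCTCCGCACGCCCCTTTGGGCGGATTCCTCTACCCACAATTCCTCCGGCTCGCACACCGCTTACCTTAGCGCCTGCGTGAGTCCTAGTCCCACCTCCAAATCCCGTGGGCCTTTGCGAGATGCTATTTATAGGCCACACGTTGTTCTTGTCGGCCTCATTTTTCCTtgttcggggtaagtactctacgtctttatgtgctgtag
Snhg3, chr4:132353637-132353936, minus strand: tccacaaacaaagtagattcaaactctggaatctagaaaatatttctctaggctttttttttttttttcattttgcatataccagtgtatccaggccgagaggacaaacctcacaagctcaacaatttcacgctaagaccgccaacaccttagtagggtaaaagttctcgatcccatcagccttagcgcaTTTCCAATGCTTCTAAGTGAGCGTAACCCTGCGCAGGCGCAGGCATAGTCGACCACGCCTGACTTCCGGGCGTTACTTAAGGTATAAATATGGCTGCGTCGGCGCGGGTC
Snhg12, chr4:132308428-132308727, plus strand: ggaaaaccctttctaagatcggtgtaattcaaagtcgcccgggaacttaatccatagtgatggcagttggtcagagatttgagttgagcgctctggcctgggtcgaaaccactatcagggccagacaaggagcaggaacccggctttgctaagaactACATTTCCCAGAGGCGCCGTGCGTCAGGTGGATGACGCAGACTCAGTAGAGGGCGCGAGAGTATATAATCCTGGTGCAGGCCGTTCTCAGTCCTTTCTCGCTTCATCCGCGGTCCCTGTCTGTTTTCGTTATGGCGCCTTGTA
Malat1, chr19:5802623-5802922, minus strand: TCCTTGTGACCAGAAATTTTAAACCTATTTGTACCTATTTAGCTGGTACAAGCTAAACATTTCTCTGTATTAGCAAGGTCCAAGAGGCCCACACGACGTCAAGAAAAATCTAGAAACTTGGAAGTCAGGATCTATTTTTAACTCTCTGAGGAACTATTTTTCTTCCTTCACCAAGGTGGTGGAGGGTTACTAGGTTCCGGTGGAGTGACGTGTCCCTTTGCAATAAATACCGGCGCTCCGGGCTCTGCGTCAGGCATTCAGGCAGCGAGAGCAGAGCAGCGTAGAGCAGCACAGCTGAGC
Neat1, chr19:5845326-5845625, minus strand: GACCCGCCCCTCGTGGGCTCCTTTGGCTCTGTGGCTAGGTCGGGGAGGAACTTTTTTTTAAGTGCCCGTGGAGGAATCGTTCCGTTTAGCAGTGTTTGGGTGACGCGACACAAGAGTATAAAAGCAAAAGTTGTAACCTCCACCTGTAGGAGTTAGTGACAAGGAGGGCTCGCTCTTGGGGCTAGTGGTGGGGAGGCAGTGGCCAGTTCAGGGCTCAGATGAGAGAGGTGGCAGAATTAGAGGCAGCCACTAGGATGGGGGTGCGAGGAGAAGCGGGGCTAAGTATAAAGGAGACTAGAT
Gas5 and Malat1 had all 300 of these bases inside a peak, Snhg1 had 262, Snhg12 143 and Snhg3 110. At Snhg1 the capitals end shortly after the start, so the peak lay mostly before it. At Snhg3 and Snhg12 they begin less than 100 bases before the start, so the peak lay mostly after it.

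A peak lay within 1 kb of at least 1 annotated transcript start of all 6 genes. Among all lncRNA genes the share was 13.7%. The genes have 4 to 20 distinct starts each, and among lncRNA genes with at least 4 distinct starts the share was 36.6%. A start of a protein-coding gene lies within 1 kb of Gas5, Snhg1 and Snhg3, and lncRNA genes so placed had a start peak in 48.4% of cases. No such start lies beside Snhg12, Malat1 and Neat1, and among lncRNA genes of that kind the share was 6.35%. With only the 5′ end of the gene model in place of every transcript start, all 6 genes still had a peak, against 13.2% of lncRNA genes. Of their 58 distinct starts, 52 had a peak within 1 kb and 27 lay inside a peak. Many starts of a gene lie close together, and 12 of the 27 were in 1 peak at Gas5, so they are not separate cases. The share among the starts of all lncRNA genes is not reported here, so this count has no background. Just inside the 1 kb limit, the nearest peak was 898 bp from a start within Snhg1 and 938 bp from one within Snhg12. Just outside it, the distances were 1023 bp at Snhg1 and 1307 bp at Snhg12.

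**Figure D1:**
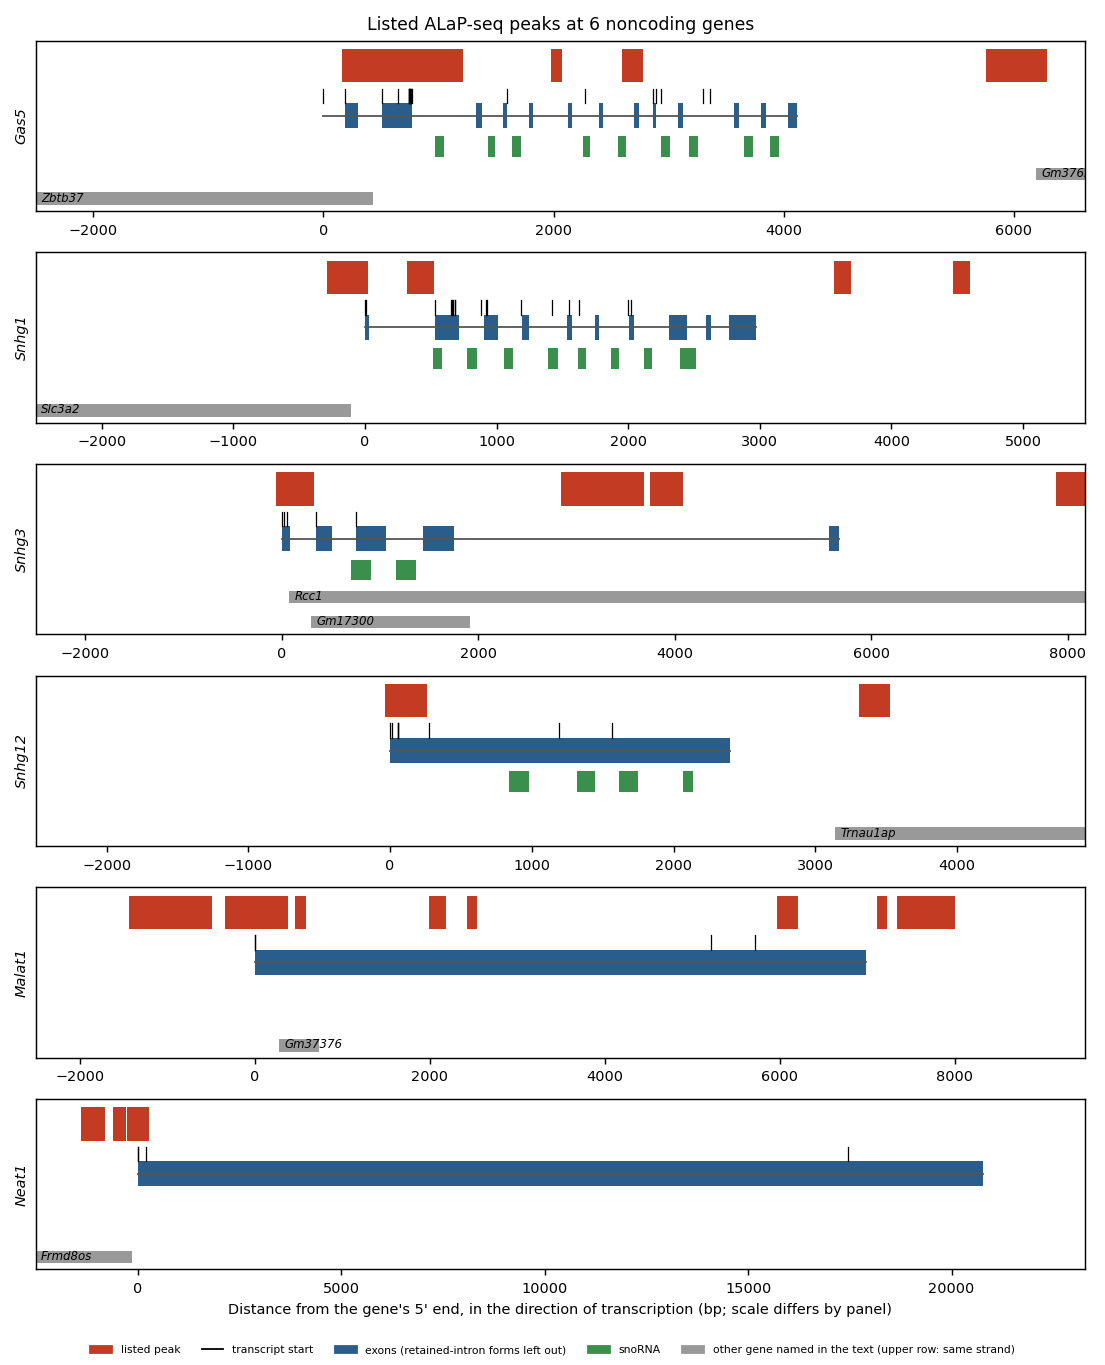
Listed peaks at each of the 6 genes against distance in bp from the gene's 5′ end in the direction of transcription, each panel with its own scale; black ticks are transcript starts, blue boxes exons, green boxes snoRNAs and grey bars other genes named in the text (upper row same strand, lower row opposite strand). Each gene has a peak at or within 1 kb of its first start, Malat1 has 5 peaks that touch its body, and the body of Neat1 is empty beyond its start peak.

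Gas5 (growth arrest specific 5; ENSMUSG00000053332.13) lies on chromosome 1 from 161034422 to 161038539 on the plus strand. Its main peak ran from 161034586 to 161035638, a width of 1053 bp that 99.3% of all listed peaks did not exceed. It was the 28th widest start peak of any lncRNA gene. The peak contained 12 of the 20 distinct starts. The start at 161035166, shared by 4 transcripts and used for the sequence above, lay 580 bp from the upstream edge and 472 bp from the downstream edge. The first annotated base of Gas5, the start of 1 retained-intron transcript, lay 164 bp before the peak. The same peak held 4 of the starts of Zbtb37, a zinc finger protein gene transcribed in the other direction, the closest to the main Gas5 start being at 161034849. A strandless peak cannot be assigned to either gene of such a pair.

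Further peaks of 95 bp (161036397 to 161036491) and 180 bp (161037021 to 161037200) lay inside Gas5. Only 1.24% of listed peaks were no wider than the first of these. Together the 3 peaks covered 1328 of 4118 bp, or 32.2% of the gene, and 31.6% of the covered bases were exonic once retained-intron transcripts were left out, against 20.7% of the gene as a whole. Both internal peaks lay within 1 kb of starts of retained-intron transcripts, so they count as start peaks here. The 180 bp peak overlapped a snoRNA. Its sequence, chr1:161037021-161037200 on the plus strand, is given because it is 1 of the 3 peaks at these genes that share bases with a snoRNA, and the 29 bases of Snord78 within it are in capitals.
Gas5 peak at Snord78: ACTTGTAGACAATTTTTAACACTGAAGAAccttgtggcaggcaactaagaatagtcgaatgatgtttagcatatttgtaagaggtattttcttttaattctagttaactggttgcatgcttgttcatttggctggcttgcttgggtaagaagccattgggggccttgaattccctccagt

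Snhg1 (ENSMUSG00000108414.1) lies on chromosome 19 from 8723475 to 8726443 on the plus strand. It had a pair of start peaks of more ordinary width, 309 bp (8723190 to 8723498) and 204 bp (8723796 to 8723999), against the median of 223 bp for the list. The first began 285 bp before the gene's 5′ end and ended 23 bp past it. It also held starts of Slc3a2, at 8723198 and 8723369 on the opposite strand. Slc3a2 encodes the heavy chain of several amino acid transporters of the cell surface. The second peak lay 321 to 524 bp downstream of the 5′ end and ended 6 bp before a further lincRNA start at 8724005. Past 8724000 no listed peak touched the remaining 2444 bp of the gene, and 4 of the 17 distinct starts had none within 1 kb.

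Snhg3 (ENSMUSG00000085241.7) lies on chromosome 4 from 132348014 to 132353686 on the minus strand and shares its start region with Rcc1, the exchange factor of the GTPase Ran, which is transcribed in the same direction. The start peak of 391 bp (132353356 to 132353746) began 60 bp before the 5′ end, ended 330 bp past it and contained 3 of the 5 starts of Snhg3 and the Rcc1 start at 132353605. All 5 starts had a peak within 1 kb. Another pair of peaks lay deep in the gene body, 850 bp wide (132349997 to 132350846) and 341 bp wide (132349599 to 132349939), beyond 1 kb of every Snhg3 start. The wider one began 2840 bp downstream of the 5′ end, was wider than or as wide as 98.3% of listed peaks, and was poor in CpG (observed/expected 0.05). Of the 341 bp peak, 79.5% was repeat-masked. Of the 1522 bp of Snhg3 in peaks, 90 bp (5.91%) were exonic, against 17.4% of the gene as a whole. The 850 bp peak lay within 1 kb of a start of Rcc1 and of a start of the lncRNA Gm17300. Rcc1 runs from 132331919 to 132353605, so both of these body peaks also lie inside Rcc1.

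Snhg12 (ENSMUSG00000086290.9) lies 36989 bp from Snhg3 on the same chromosome, from 132308623 to 132311024 on the plus strand. Its start peak was the narrowest of the widest start peaks of the 6 genes, at 296 bp (132308585 to 132308880), and 66.2% of listed peaks were no wider. It began 38 bp before the 5′ end, ended 257 bp past it and contained 5 of the 8 distinct starts. No start of another gene among those examined lay within 1 kb of it. It was also the only peak that touched the gene, covering 258 bp or 10.7% of it. The other 2144 bp held none.

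The snoRNAs themselves were mostly outside the peaks. The 4 host genes contain 23 snoRNAs by name, 9 in Gas5, 8 in Snhg1, 4 in Snhg12 and 2 in Snhg3, and 3 of the 23 shared a base with a peak. In Gas5 these were Gm26224, whose 80 bases all lay in the 1053 bp start peak, and Snord78, with 29 of 66 bases. In Snhg1 it was Gm25855, with 7 of 72 bases in the second start peak. None of the H/ACA snoRNAs of Snhg3 (Snora73a and Snora73b) or of Snhg12 (Snora16a, Snora44 and Snora61) shared a base with one, nor did Snord99, the box C/D snoRNA of Snhg12. Over all 665 snoRNA entries inside a lncRNA or protein-coding gene of the same strand, 2.56% shared a base with a peak. In the 3 cases at these hosts the snoRNA lay in a start peak or in a peak close to an internal start.

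Malat1 (ENSMUSG00000092341.3) lies on chromosome 19 from 5795690 to 5802672 on the minus strand and, unlike the hosts, is transcribed mainly as an unspliced RNA. A peak of 720 bp (5802297 to 5803016) covered its start, reaching 344 bp before it and 375 bp past it. A wider one of 950 bp (5803159 to 5804108) lay 487 to 1436 bp upstream and contained no annotated start. Its width was not exceeded by 98.9% of listed peaks and ranked 47th among the widest start peaks of lncRNA genes. The only other gene with a start within 1 kb of the Malat1 start peaks was Gm37376, annotated on the opposite strand inside Malat1.

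Malat1 had the most peaks that touched its body, 5 against 3 at Snhg3, but among peaks of at least 223 bp it had 2 and Snhg3 had 3. Of the 5, the one at the start was followed by peaks of 130 bp (459 to 588 bp downstream of the 5′ end), 195 bp (1991 to 2185 bp), 116 bp (2424 to 2539 bp) and 242 bp (5964 to 6205 bp). The 195 and 116 bp peaks lay beyond 1 kb of every annotated start, and the 242 bp peak lay 244 bp from the start of a short transcript of the 3′ part. Together they covered 1059 of 6983 bp, 15.2% of the gene, and the longest stretch without one was 3424 bp. Past the 3′ end, peaks of 111 bp and 666 bp (5795447 to 5795557 and 5794669 to 5795334) lay within the next 5 kb, with no start of another examined gene within 1 kb of either.

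Neat1 (ENSMUSG00000092274.3) lies 22035 bp upstream of Malat1 on the same strand, from 5824708 to 5845478, and differed from Malat1 in its body. A peak of 547 bp (5845202 to 5845748) reached 270 bp before the 5′ end and 276 bp past it and contained 3 of the 4 distinct starts. Peaks of 314 bp (5845772 to 5846085) and 598 bp (5846283 to 5846880) followed upstream. The start of Frmd8os, an antisense lncRNA transcribed away from Neat1, lay at 5845623 inside the 547 bp peak. Downstream of the start peak the remaining 20494 bp of Neat1 held no peak. The remaining start, at 5828012 in the 3′ part of the gene, lay 9671 bp from the nearest peak. Of this empty stretch 15.1% was repeat-masked, and its GC content was 47.2%.

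Set side by side, the neighbouring segments of the Malat1 and Neat1 locus differed. Peaks covered 15.2% of Malat1, where 11.4% was masked, and 1.33% of Neat1, where 14.9% was masked. The 22035 bp between the genes held 7 whole peaks and part of the Malat1 start peak, 173 to 950 bp wide, and 13.9% of it was covered although 29.6% was masked. The 5 kb before the Neat1 start was the most densely covered of the segments compared, at 38.6%. Whether masking had a part in these differences was not tested. The level of either RNA was not measured in these data.

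Over gene bodies in general, all 6 genes had at least 1 peak, against 16.2% of lncRNA genes, and 4 of them (Malat1 with 5, Gas5 and Snhg3 with 3 each and Snhg1 with 2) had at least 2, against 4.64%. Among peaks of at least 223 bp, only Snhg3 with 3 and Malat1 with 2 had at least 2, and by peak midpoint Snhg1 had 1. Starts and bodies overlap, so these counts are not separate from those at the starts. Body peaks beyond 1 kb of every start of the gene itself were found at Snhg3 and Malat1, 2 each, and Neat1 had none. In Gas5, Snhg1 and Snhg12 every base lies within 1 kb of a start, so no such peak was possible there. Of the 1836 lncRNA genes with a start peak, genes of that kind included, 348 (19%) had such a body peak. Among those of at least 20 kb, a class in which Neat1 falls, 46.0% did. At Snhg3 the 850 bp peak counted in this way lay within 1 kb of starts of other genes, Rcc1 and Gm17300.

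**Figure D2:**
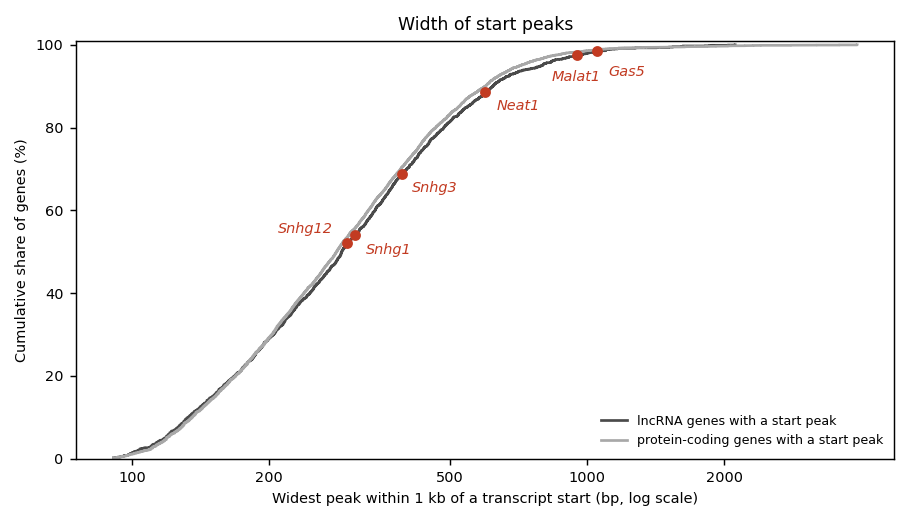
Cumulative share of genes (%) against the width in bp (log scale) of their widest peak within 1 kb of a transcript start, for lncRNA and protein-coding genes that have one, with the 6 genes as red points on the lncRNA curve. Gas5 (1053 bp), Malat1 (950 bp) and Neat1 (598 bp) sit towards the wide end, and Snhg3 (391 bp), Snhg1 (309 bp) and Snhg12 (296 bp) nearer the middle.

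Widths at the starts spread widely among the 6 genes. The 14 distinct start peaks were 95 to 1053 bp wide with a median of 311 bp, and 10 of them reached the median width of the list. The widest start peak of Neat1, 598 bp, is the one farthest from its start, so at both nuclear lncRNAs the widest peak was upstream of the peak over the start.

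The number of peaks in the surroundings also differed between the genes. From 50 kb before to 50 kb after the gene there were 20 peaks each at Malat1 and Neat1, 15 at Snhg1, 11 at Snhg12, 9 at Snhg3 and 5 at Gas5. These amount to 18.7, 16.6, 14.6, 10.7, 8.52 and 4.80 peaks per 100 kb, or 18.7, 16.5, 14.6, 10.7, 8.51 and 4.80 times the mean density of the genome. Of all lncRNA genes 13.6% had at least 5 such peaks, and of protein-coding genes 26.9%. At least 20 were found around 0.359% of lncRNA genes and 0.529% of protein-coding genes. A peak of any kind within this distance was found at 56.9% of lncRNA genes.

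The regions share peaks. The 80 counts are 52 distinct peaks, because 28 of them lie in both the Malat1 and the Neat1 region or in both the Snhg3 and the Snhg12 region. These pairs are therefore not independent cases. Leaving out peaks within 1 kb of another gene's start, 13 remained at Malat1, 11 at Neat1, 6 at Snhg1, 4 at Snhg12, 3 at Snhg3 and 2 at Gas5.

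**Figure D3:**
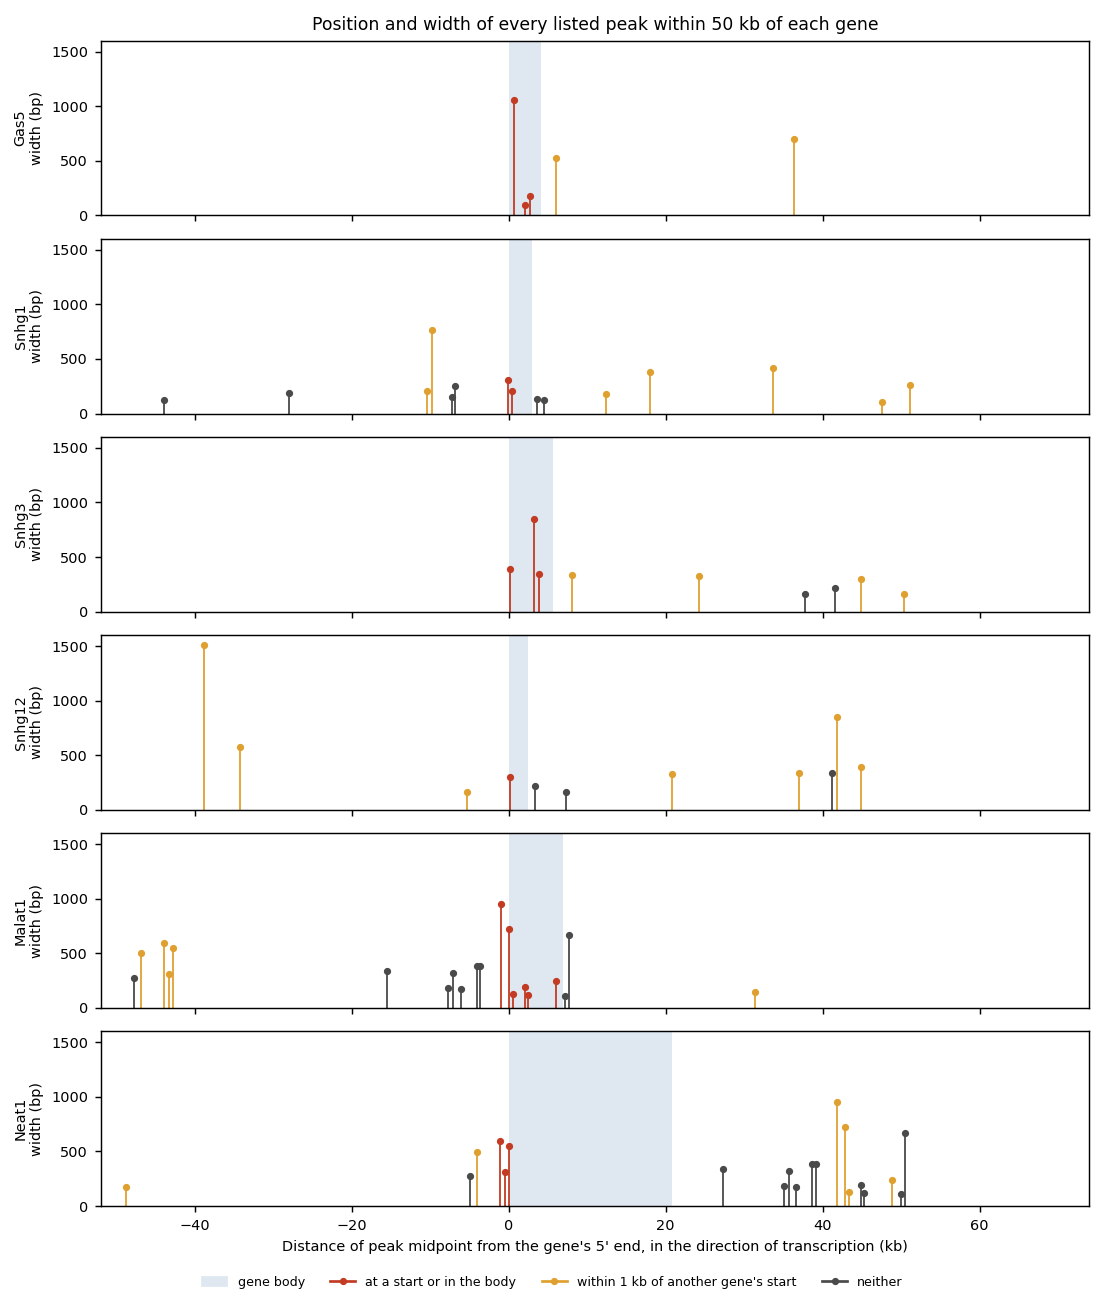
Width in bp of every listed peak from 50 kb before to 50 kb after each of the 6 genes against the distance in kb of its midpoint from the gene's 5′ end, in the direction of transcription; red marks peaks at a start or in the body, yellow those within 1 kb of another gene's start and dark grey the rest. Malat1 has a run of dark grey peaks upstream, while at Gas5 both peaks outside the gene lie at other genes' starts.

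Around Gas5 both outside peaks lay downstream, and the nearer of them, 529 bp wide, was at the start of Gm37634. No peak lay in the 50 kb upstream. Around Snhg1, 6 peaks lay upstream and 7 downstream. The widest, 767 bp (8713295 to 8714061), lay at internal starts of Slc3a2. Downstream, peaks of 110 to 413 bp lay at the starts of Wdr74, which encodes a nucleolar protein of ribosome assembly, of 1700092M07Rik and Stx5a, a Golgi fusion factor, of Nxf1, the main receptor of mRNA export, of Tmem223 and of Tmem179b.

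Around Snhg12, the widest peak was 1512 bp (132269012 to 132270523) and lay at Rnu11, the gene of the U11 small nuclear RNA of the minor spliceosome, and the overlapping lncRNA Gm28872. It was wider than or as wide as 99.8% of listed peaks. Other peaks within 50 kb of Snhg12 lay at the starts of Taf12 (574 bp), a subunit of general transcription factor complexes, of Rab42 (166 bp), of Trnau1ap (331 bp), which binds the selenocysteine tRNA, and of Rcc1. The region of Snhg3 held 6 peaks downstream and none upstream.

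Around Malat1, 12 peaks lay upstream and 3 downstream, counted without those that touch its body. From 3422 to 15669 bp upstream, in the sequence between Malat1 and Neat1, 6 peaks of 173 to 388 bp had no start of another examined gene within 1 kb. Their CpG observed/expected lay between 0.09 and 0.41. Of the 5 farther upstream, 3 lay at the Neat1 start and 1 at a Frmd8os start, and 1 had no start within 1 kb. Counted in the same way, Neat1 had 5 peaks upstream and 14 downstream, all 14 of them past its 3′ end.

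**Figure D4:**
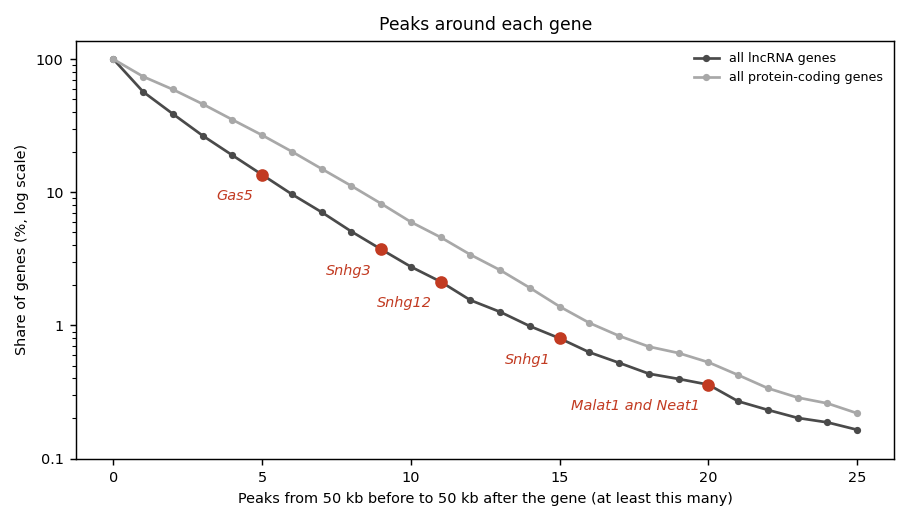
Share of genes (%, log scale) with at least a given number of listed peaks from 50 kb before to 50 kb after the gene, for all lncRNA and all protein-coding genes, with the 6 genes as red points on the lncRNA curve. Gas5, with 5 peaks, lies where 13.6% of lncRNA genes have as many, and Malat1 and Neat1, with 20, where 0.359% do.

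Base composition differed between start peaks and other peaks in its medians, and the ranges overlapped. The 14 start peaks had a median GC content of 55.1% (39.4 to 65.6%) and a median CpG observed/expected of 0.74 (0.15 to 1.21). The other 38 distinct peaks within 50 kb had 53.8% (42.9 to 75.4%) and 0.33 (0.00 to 1.07), and all listed peaks had medians of 55.8% and 0.38. The peak over the Snhg1 start had a CpG observed/expected of 1.14, that of Snhg3 1.01, that of Snhg12 0.94 and that of Gas5 0.73. The peaks over the starts of Malat1 and Neat1 had 0.59 and 0.52.

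In the promoter sequences printed above, CpG observed/expected was 1.07 at Snhg1, 1.02 at Snhg3, 0.86 at Snhg12, 0.67 at Gas5 and 0.60 at Malat1, and 97.1%, 95.1%, 84.0%, 68.9% and 64.5% of 32851 RefSeq promoters had less. Host genes of this kind are known for starts in a run of pyrimidines, as in the mRNAs of ribosomal proteins. The longest pyrimidine run that reached within 5 bases of the start was 9 bases at Snhg1 and at Snhg12, 6 at Gas5, 5 at Snhg3 and 4 at Malat1. Runs as long were present in 6.89%, 21%, 32.9% and 48.7% of promoters for 9, 6, 5 and 4 bases.

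Short words were searched on both strands of the same 300 bases of these 5 genes. TATAAA, the TATA box core, was present at Snhg1 and Snhg3 (13.6% of all promoters), and GGGCGG, the core of GC boxes, at Gas5 and Snhg1 (35.7%). The TATAAA match lay past the start at Snhg3 and on the opposite strand at Snhg1. Snhg3 also held CCGGAAG, an ETS-type word (8.86%), and ATGCAAA, an octamer-like word (4.63%). CACGTG, the E-box bound by Myc (7.15%), and GCATGCG, part of the NRF1 motif (3.58%), were present at none of the 5 genes. Snhg12 and Malat1 held none of the 6 words. No word contains another, and a match describes letters only. The Neat1 sequence printed above was not part of this search. It also holds TATAAA and, on the other strand, GGGCGG. That sequence is placed by its peak, so the shares above do not apply to it.

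**Figure D5:**
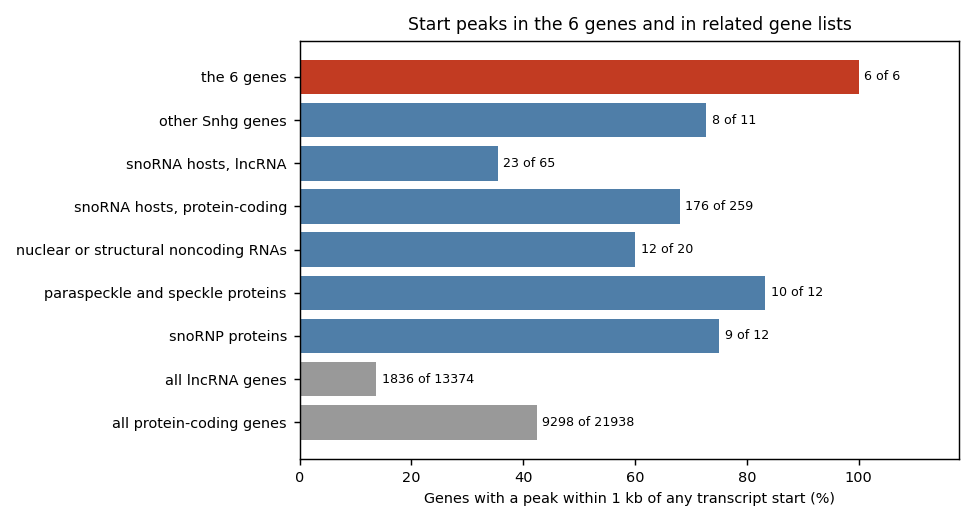
Share of genes (%) with a peak within 1 kb of any transcript start, for the 6 genes, for 6 related gene lists and for all lncRNA and all protein-coding genes, with the number of genes beside each bar. The shares are 72.7% for the other Snhg genes, 35.4% for other lncRNA hosts of snoRNAs and 13.7% for all lncRNA genes.

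Among related genes, 8 of the 11 other genes named Snhg had a start peak (72.7%). The widest were at Snhg5 (799 bp), Snhg8 (616 bp), Snhg9 (579 bp) and Snhg15 (531 bp), and Snhg11, Snhg14 and Snhg18 had none. Of the 65 lncRNA genes with a snoRNA of the same strand inside them, the 4 hosts left out, 23 had a start peak (35.4%). This list shares 8 genes with the previous one. Its widest start peaks were at 1110038B12Rik (2116 bp), Gm28496 (915 bp), Snhg5 and Zfas1 (720 bp), and 1700001G01Rik, 1700020G17Rik, 2010001K21Rik and 2010110G14Rik were among those with none. Of the 259 protein-coding hosts 176 had one (68.0%), with the widest at Tex14 (1537 bp), Eif4a2 (1349 bp), Hspa8 (981 bp) and Gtf2a1 (970 bp) and none at AY761184, Ap1b1, Cdh12 or Cdh13, among others. Protein-coding genes as a whole had one in 42.4% of cases. Both host lists go by position and strand alone, and gene models that overlap, such as Pcdhga2 and Pcdhga3, count separately.

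Other noncoding RNAs that act in the nucleus or in RNA-protein machines had a start peak at 12 of 20 members (60.0%). The widest were at Nespas (603 bp), an antisense transcript of the imprinted Gnas locus, at the RNA components of RNase MRP, Rmrp (505 bp), and RNase P, Rpph1 (452 bp), and at the imprinted Kcnq1ot1 (416 bp). Airn, Firre, Ftx and H19 were among those without one. The share among all lncRNA genes was 13.7%. It is only a partial background, because Rpph1, Rn7sk and Terc in this list are annotated as other types of RNA. Of the 5 X-linked genes in this list 1 had a start peak, Tsix. The share among all X-linked genes is not reported here, so this count has no background. Genes for proteins of paraspeckles and nuclear speckles, the compartments of Neat1 and Malat1, had one at 10 of 12 members (83.3%), with Srsf2 (764 bp), Rbm14 (626 bp), Srsf1 (621 bp) and Srrm2 (575 bp) widest and Nono and Tardbp without. Genes for the proteins that bind snoRNAs or help to assemble their particles had one at 9 of 12 members (75.0%). Nop58 (558 bp), Nolc1 (502 bp), Gar1 (470 bp) and Nhp2 (398 bp) were widest, and Dkc1, Shq1 and Snu13 had none. The share of all protein-coding genes with a start peak, 42.4%, is the background for both protein lists.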

How the data were processed

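The values used are the start and end positions in 1 deposited table of peaks, whose name says that replicates were merged. Per the series' design text and the submitters' processing notes, the authors used Trimmomatic to trim reads, bowtie2 2.3.5.1 to map them to mm10 with repeats masked, and bedtools to take out blacklisted and greylisted regions. Sources used here do not give the peak caller, its threshold, the merging rule or the role of the controls in calling. Repeat masking can leave repeats without peaks. The masked shares given here count the bases that the GRCm38.p6 assembly sequence itself writes in lower case. Whether the authors masked the same bases in mapping is not known here.

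Peaks were joined to GENCODE M21 with Python 3.11.15. A peak counted when it shared at least 1 bp with the 1 kb either side of a transcript start, with the gene, or with the gene and 50 kb either side. snoRNA entries of the same name in a gene counted once. Counting was tested on simulated intervals. Copies of the central 150 bp of a peak (95% identity over 80% of its length) were sought with BLAST 2.17.0.

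The genes and lists were chosen with earlier results of these data known, and the classes of at least 4 starts, a protein-coding start within 1 kb, and at least 20 kb after seeing values. Segments of the Malat1 and Neat1 locus were also set after seeing values. Named are the 6 genes, genes with a start near their peaks, from each list up to 4 genes with the widest start peak and up to 4 without one by symbol (counts of 5 or fewer in full), and the 10 lncRNA genes with the widest start peak. Some neighbouring genes are not reported here. Norad and Oip5os1 matched no symbol.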

Additional observations from a re-analysis of the deposited data

How the results depend on the processing

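No paired analysis was possible because the list names no sample, and for the same reason no replicate could be left out. All 6 genes kept a start peak with windows of 500 bp, 250 bp and 2 kb, with the 5′ end alone, by peak midpoint, with only peaks of at least 223 bp, and with near-identical copies left out (0 such peaks within 50 kb). With the 5′ end alone the starts counted are 6 in place of 52, by construction. With only the wider peaks, body peaks summed to 9 in place of 15 and peaks within 50 kb to 49 in place of 80. Within 20 kb the sum was 49, and without peaks at other genes' starts 39. The other 18 of these 23 sums stayed within 1.5 times, as did 72 of the 96 values of single genes. Depth and peak strength are unknown here, so width is the only rank.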

Other observations

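The 10 lncRNA genes with the widest start peak were 1110038B12Rik (2116 bp), Gm15444 (2037 bp), Gm31763 (1878 bp), Gm38227 (1858 bp), Gm11399 (1819 bp), Gm31793 (1623 bp), Gm39469 (1619 bp), Gm41077 (1613 bp), 4932422M17Rik (1544 bp) and AI480526 (1544 bp). Of these, 5 have a protein-coding start within 1 kb. 1110038B12Rik, on chromosome 17, is also a snoRNA host by the rule used here, had 3 peaks over its body and 20 peaks within 50 kb, as many as Malat1 and Neat1.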
